A study of Mus musculus with 24 samples.

Results

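The comparison of dDAVP with vehicle at 3 h covers the first of 4 sampling times in a time course of vasopressin action on mpkCCD, a mouse kidney cell line of cortical collecting duct origin. dDAVP is a synthetic vasopressin analogue that acts on the V2 receptor. The libraries labelled dDAVP at 3 h (n = 3) were set against those labelled vehicle at 3 h (n = 3), which makes 6 of the 24 libraries of the series. All groups were wild-type cells of C57BL/6 origin at passages 10 to 11, held on permeable filters for 6 days and in minimal medium for 24 h, with dDAVP or vehicle then added to the basolateral chamber. The line stands for 1 cultured cell type, without the other cells, flow and hormones of a kidney. Genes were described where their mean reached at least 5 CPM in either 3 h group, which 12485 of the 29743 genes tested did. CPM are estimated counts per M counts after scaling of the library sizes. Whether replicates came from separate cultures is not stated in the labels, so each p-value speaks only of the spread among the libraries at hand, part of which may be technical.

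Vasopressin controls how much water the collecting duct takes back from the urine. The V2 receptor on the basolateral side couples through Gs to adenylyl cyclase, cAMP activates protein kinase A, and the kinase acts on water channel vesicles at once and on transcription through factors of the CREB family. Signals of this kind are also known to be limited by phosphodiesterases, which break down cAMP, and by repressors and kinases that CREB itself switches on.

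With the scaling and model used first, a small set of genes rose at 3 h and very few fell. Of the 12485 genes of at least 5 CPM, 140 passed the test (1.12%), 136 of them higher (1.09%) and 4 lower (0.032%). The balance of directions depended on the fit: among genes of at least 5 CPM it was 144 higher and 48 lower by library totals without scaling factors, 224 and 75 in a refit of these genes alone, and 55 and 43 with limma on log2 (TPM + 1), which over all genes called 58 higher and 77 lower. The gene Gm24245 held 37.4%, 40.5% and 42.8% of all TPM in vehicle replicates 1, 2 and 3. In dDAVP replicates 1, 2 and 3 it held 44.4%, 44.5% and 45.9%. TPM have a fixed total per library, so a larger part for this gene leaves less for all others. Its part in the calls gained or lost on TPM, here and below, was not tested. A gene is said to rise or fall where the p from edgeR's quasi-likelihood test, adjusted by the Benjamini-Hochberg method over all 29743 genes, was below 0.05. Over all genes tested, 144 passed (0.484%), 139 of them higher (0.467%), and among genes under 5 CPM 4 passed (0.0232%). Each number of genes called on a list below stands beside these shares and the 1.12% of genes of at least 5 CPM. The lists were chosen with earlier results of these data known, so their counts are a description and no test of a family. All 140 had the 3 dDAVP libraries on 1 side of the 3 vehicle libraries, a separation that 7.62% of these genes showed upwards and 2.31% downwards without regard to the test. The rises had a median log2 fold change of 0.75. Among them 41 were at least 2-fold (including Gm42429, at 0 in every vehicle library and at 2.81, 4.78 and 9.1 CPM in dDAVP), 62 lay between 1.5- and 2-fold, and 33 were smaller. The number of calls rested on single libraries: leaving out vehicle replicate 1 or 2 gave 69 or 84, leaving out dDAVP replicate 2 or 3 gave 68 or 60, and leaving out vehicle replicate 3 or dDAVP replicate 1 gave 194 or 184. Of the 140 genes, 129 were protein coding, and 23 overlapped another gene of at least 5 CPM, 18 of them only on the other strand, so reads of such pairs could have been shared if the counting did not use strand.

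**Figure D1:**
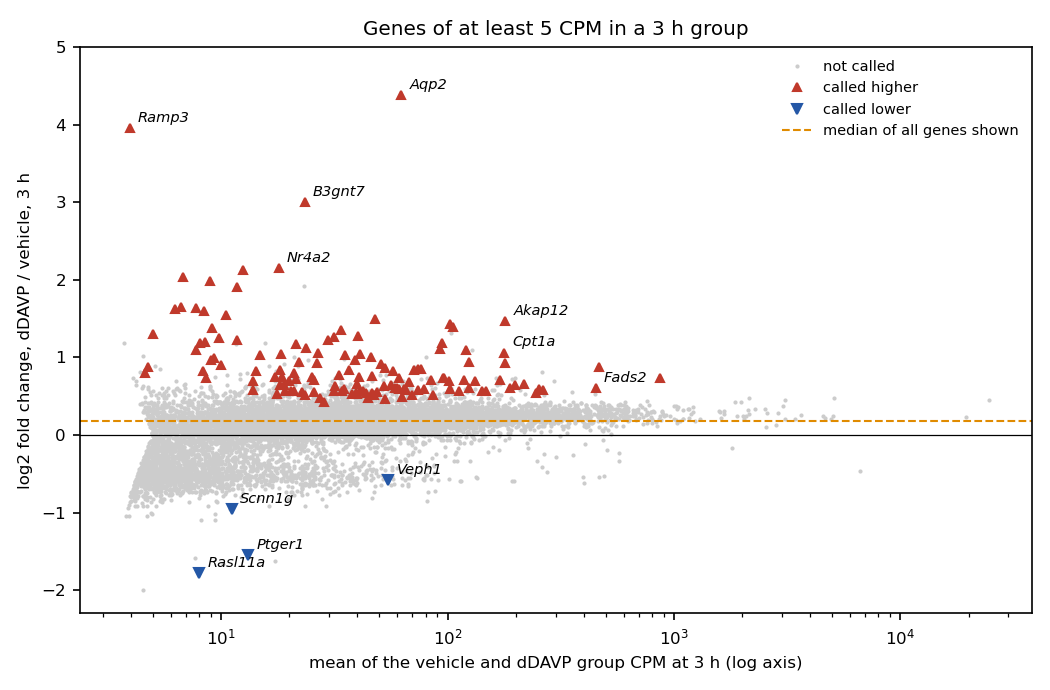
Log2 fold change of dDAVP over vehicle at 3 h against the mean of the 2 group levels in CPM (log axis), 1 point per gene of at least 5 CPM. Triangles mark genes that passed the test, Aqp2 at 4.38 stands highest, the 4 genes that fell are labelled, and the dashed line at 0.18 is the median of all genes of at least 5 CPM; Gm42429, at 0 in every vehicle library, is not drawn.

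The cells carried part of the principal cell programme. Avpr2, the V2 receptor, lay between 23.7 and 36.1 CPM over the 6 libraries, and the transcription factor Gata3 between 134 and 243 CPM. The basolateral water channel Aqp4 lay between 0.738 and 1.36 CPM and Scnn1b, the beta chain of the sodium channel ENaC, between 0.79 and 2.04 CPM, so these 2 defining genes were close to absent. The summed level of 9 tested intercalated cell markers was 33 to 36 CPM in vehicle and 36.2 to 39.9 CPM in dDAVP, most of it from Rhcg and Atp6v1b1. The 5 tested proximal tubule markers summed to 52.7 to 66.7 CPM in vehicle and 49.8 to 61 CPM in dDAVP, most of it from Lrp2. No fibroblast or endothelial marker reached a mean of 5 CPM, and leukocyte markers summed to 14 to 19.5 CPM in vehicle and 12.7 to 15.2 CPM in dDAVP. No marker of these 5 other cell types passed the test, beside 0.484% of all genes tested. With the receptor gene share described below as a covariate, 1 intercalated cell marker was called higher. In bulk RNA, fewer cells of a type and less RNA per cell cannot be told apart.

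Aqp2, the water channel that vasopressin inserts into the apical membrane, rose most among the named genes. It stood at 5.03, 5.72 and 6.48 CPM in vehicle replicates 1, 2 and 3 and at 110, 126 and 122 CPM in dDAVP replicates 1, 2 and 3. Every dDAVP library was far above every vehicle library, and the log2 fold change was 4.38 ± 0.165 (SE, adjusted p = 3.1e-15). Aqp5, a water channel better known from glands and lung that lies next to Aqp2 (GRCm38 chromosome 15, 99590782 to 99594829), stood at 15.6, 17.9 and 22.2 CPM in vehicle and at 38.9, 45.2 and 49.1 CPM in dDAVP. Its groups did not overlap either, and it rose by 1.26 ± 0.136 on the log2 scale (adjusted p = 2.9e-06). Aqp3, the basolateral water channel, was at 4.04 to 4.72 CPM in vehicle and 3.86 to 4.01 CPM in dDAVP and, with all dDAVP libraries just below all vehicle libraries, did not pass the test (log2 -0.17, adjusted p = 0.58).

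**Figure D2:**
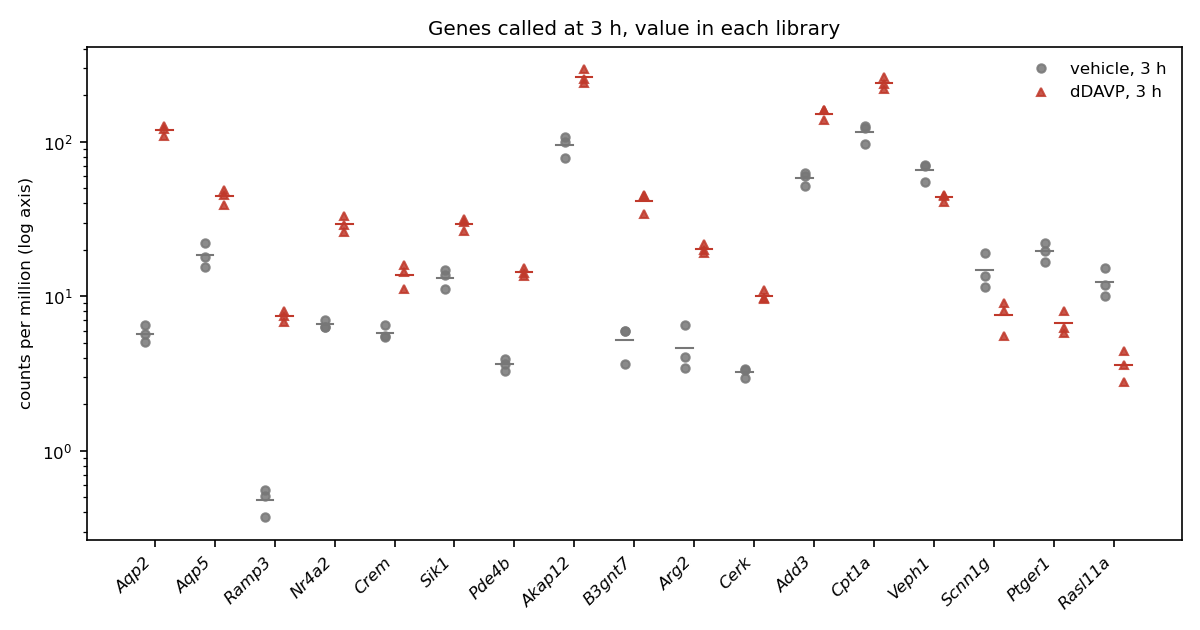
CPM (log axis) of 17 genes that passed the test at 3 h, with 1 point per library and a line at each group mean. Circles are the 3 vehicle libraries and triangles the 3 dDAVP libraries; the groups do not overlap for any of the genes drawn, and Veph1, Scnn1g, Ptger1 and Rasl11a are the 4 with dDAVP below vehicle.

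CREB binds the palindrome TGACGTCA, the cAMP response element, and its 5-base core TGACG. Both were searched on both strands in the promoter windows of RefSeq (GRCm38.p6), 250 bases before to 50 after each start site; the palindrome contains the core on each strand. Windows were found for 98 of the 136 rises, and 2 held the palindrome (2.04%), beside 3.66% of the 9078 genes of at least 5 CPM with a window and 1.79% of all 32851 windows. The core was found in 32 of the 98 (32.7%), beside 35.9% of genes of at least 5 CPM and 20.8% of all windows. Of the 26 rises of at least 2-fold with a window, 11 held it (42.3%). A gene with several windows counted once if any held the motif, so genes and windows are not counted alike, and a match is only a match of letters. The sequences below are the 250 bases before the start site, 5′ to 3′ along the gene, with capitals for the palindrome in Arl4d and for the core, TGACG or its reverse complement CGTCA, in the others; a further core in the Arl4d window is left in lower case. Arl4d is shown for the palindrome at -26, Aqp2 for its core at -211, Nr4a2 for its 4 cores, Pde4b for a core at -34 at 1 of its start sites, and Ramp3 as a large rise with neither motif.
Arl4d, chr11:101665291-101665540, plus strand: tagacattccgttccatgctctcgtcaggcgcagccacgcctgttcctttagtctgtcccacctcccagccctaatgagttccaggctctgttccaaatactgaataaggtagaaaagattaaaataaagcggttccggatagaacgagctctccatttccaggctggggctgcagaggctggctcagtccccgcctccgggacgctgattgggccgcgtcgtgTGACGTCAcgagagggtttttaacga
Aqp2, chr15:99578806-99579055, plus strand: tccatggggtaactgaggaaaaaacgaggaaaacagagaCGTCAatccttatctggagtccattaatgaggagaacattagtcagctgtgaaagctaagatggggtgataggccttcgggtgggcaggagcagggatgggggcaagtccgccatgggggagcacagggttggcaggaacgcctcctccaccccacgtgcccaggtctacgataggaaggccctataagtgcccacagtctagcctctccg
Nr4a2, chr2:57124004-57124253, minus strand: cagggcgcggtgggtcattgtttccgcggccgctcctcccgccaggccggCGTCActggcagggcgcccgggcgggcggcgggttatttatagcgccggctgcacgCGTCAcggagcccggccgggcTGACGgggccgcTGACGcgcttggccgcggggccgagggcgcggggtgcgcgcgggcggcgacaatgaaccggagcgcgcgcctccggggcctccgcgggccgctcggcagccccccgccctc
Pde4b, chr4:102421305-102421554, plus strand: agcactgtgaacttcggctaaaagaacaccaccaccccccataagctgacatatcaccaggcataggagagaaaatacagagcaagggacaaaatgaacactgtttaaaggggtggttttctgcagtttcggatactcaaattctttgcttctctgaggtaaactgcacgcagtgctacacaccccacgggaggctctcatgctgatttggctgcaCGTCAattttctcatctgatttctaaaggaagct
Ramp3, chr11:6658283-6658532, plus strand: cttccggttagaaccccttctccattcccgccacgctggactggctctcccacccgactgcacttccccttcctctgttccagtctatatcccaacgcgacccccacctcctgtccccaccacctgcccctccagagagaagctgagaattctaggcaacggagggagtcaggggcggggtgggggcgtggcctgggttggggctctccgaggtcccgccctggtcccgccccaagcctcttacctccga

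Beside these sequences stand rises of 1.10 for Arl4d, 4.38 for Aqp2, 2.15 for Nr4a2, 1.98 for Pde4b and 3.95 for Ramp3 on the log2 scale, so the largest rises came with and without the motif in this window.

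Genes of sodium and potassium transport moved in both directions. Scnn1g, which encodes the gamma chain of the sodium channel ENaC (chromosome 7, 121734479 to 121768475), stood at 11.5, 19.2 and 13.5 CPM in vehicle and at 7.99, 5.57 and 9.1 CPM in dDAVP. The highest dDAVP library stayed below the lowest vehicle library, and the log2 fold change was -0.96 ± 0.191 (adjusted p = 0.0109). This call was lost when replicate 2 of either group was left out (adjusted p up to 0.246). It was also lost with RLE size factors and with the 3 h libraries alone (adjusted p = 0.204 and 0.121). Scnn1a, the alpha chain, stood at 42.9, 58.2 and 71.2 CPM in vehicle and 45.1, 62.5 and 59.4 CPM in dDAVP, and the groups overlapped (log2 -0.05, adjusted p = 0.863). It was called lower with the receptor gene share and a refit of genes of at least 5 CPM, both described below (log2 -0.32, adjusted p = 0.0038). With the share or the refit alone Scnn1a was not called (log2 -0.28 and -0.22, adjusted p = 0.179 and 0.244). Tmprss4, a membrane serine protease of a family that can activate this channel, stood at 3.42, 6.22 and 6.43 CPM in vehicle and 15.2, 16.3 and 15.3 CPM in dDAVP and rose by 1.54 ± 0.194. It was the 1 of 14 proteases and inhibitors tested that passed, beside 0.484% of all genes tested. Among 25 tested genes of the sodium pump and of chloride and potassium transport 2 rose, the potassium channels Kcnq1 (log2 0.69, adjusted p = 0.00696) and Kcnk1 (0.64, adjusted p = 0.017). Kcnq1 overlaps the antisense gene Kcnq1ot1, so its reads may not be its own, and on TPM its call was lost (4.95 in vehicle, 4.89 in dDAVP, limma log2 0.02, adjusted p = 0.958). Nedd4l, the ubiquitin ligase that removes the sodium channel from the membrane, rose from 64.8, 71.1 and 76.7 CPM to 92, 109 and 103 CPM (log2 0.51, adjusted p = 0.0185). Usp2, a deubiquitinase that acts on the same channel, rose by 0.99 ± 0.145 (adjusted p = 0.000235). Its call was lost with the 3 h libraries alone (adjusted p = 0.0502) and on TPM, where limma gave a log2 fold change of 0.22 (adjusted p = 0.399). These 2 were the ones that passed among 12 corticosteroid receptors and targets, a list that also holds Sgk1 (log2 0.18, adjusted p = 0.513). Each of the calls of Kcnq1, Kcnk1 and Nedd4l ended without vehicle replicate 1 or 2 and without dDAVP replicate 2 or 3, with adjusted p up to 0.106, 0.376 and 0.35. That of Nedd4l also ended without vehicle replicate 3, with DESeq2 (adjusted p = 0.0696) and on TPM with 1 added (limma log2 0.24, adjusted p = 0.188).

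In the cAMP pathway 1 gene that ends the signal and 1 that anchors its kinase rose. Pde4b, a phosphodiesterase that degrades cAMP, stood at 3.67, 3.92 and 3.28 CPM in vehicle and at 13.5, 15.3 and 14.2 CPM in dDAVP. The groups were widely separated, and Pde4b rose by 1.98 ± 0.164 on the log2 scale (adjusted p = 4.46e-08). It was the 1 of 16 phosphodiesterases tested that passed, and 3 passed with the receptor gene share as a covariate. The others were Pde4a (log2 0.62, adjusted p = 0.197 without and 0.0167 with the share) and Pde7a (0.51, 0.0756 and 0.0398), of which Pde7a also passed in the refit of genes of at least 5 CPM (adjusted p = 0.0104). Pde4d had a log2 fold change of 0.60 (adjusted p = 0.365). Pde4a, Pde7a and Pde4d had every dDAVP library above every vehicle library, as did 7.62% of genes of at least 5 CPM. Of the 7 phosphodiesterases of at least 5 CPM, 5 lay above 0, and Pde3b had a log2 fold change of -0.86 (adjusted p = 0.365). Akap12, a scaffold that holds protein kinase A near the membrane (chromosome 10, 4266380 to 4359470), stood at 78.6, 100 and 107 CPM in vehicle and at 241, 295 and 257 CPM in dDAVP. No library of 1 group came near the other, and the log2 rise was 1.47 ± 0.13 (adjusted p = 9.53e-08). The other 15 anchoring proteins tested did not pass. None of 21 genes for the V2 receptor, Gs, its beta and gamma partners, arrestins and adenylyl cyclases passed (median log2 0.35 over the 12 of at least 5 CPM), and none of 13 protein kinase A subunits and inhibitors did (median 0.25 over 9). Over all genes tested 0.484% passed, so the lack of a call does not set lists of this size apart. Avpr2, of the first list, was called lower with the receptor gene share as a covariate (adjusted p = 0.00057). Adcy6, a cyclase of the collecting duct, stood at 48.9, 61.8 and 64.4 CPM in vehicle and 72, 83.6 and 75.2 CPM in dDAVP (log2 0.40, adjusted p = 0.187). These medians stand beside one of 0.18 over all genes of at least 5 CPM, which is described with the receptor gene share below.

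Among CREB's known partners and targets, Crem, Sik1 and Crtc1 rose, 3 of 17 tested genes of the CREB family, its coactivators and the salt-inducible kinases. Over all genes tested 0.467% rose. Crem, which encodes CREB-like activators and repressors, stood at 5.45, 5.53 and 6.48 CPM in vehicle and at 11.1, 16 and 14.3 CPM in dDAVP, and rose by 1.25 ± 0.181 (adjusted p = 0.000215). It overlaps the transcript Gm6225 on the other strand, which had a log2 fold change of -0.22. Sik1, a kinase that keeps CREB coactivators out of the nucleus, stood at 11.1, 13.7 and 14.8 CPM in vehicle and 26.5, 31.9 and 30.3 CPM in dDAVP, and rose by 1.17 ± 0.131 (adjusted p = 5.1e-06). Both pairs of groups were clear of each other, and on TPM the limma call of Sik1 was lost (log2 0.73, adjusted p = 0.0645). Crtc1, one of those coactivators, rose by 0.54 ± 0.0968 (adjusted p = 0.0037). Its call ended without vehicle replicate 1 and without dDAVP replicate 2 or 3 (adjusted p up to 0.192), and on TPM its log2 fold change was 0.07 (adjusted p = 0.721).

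Of 31 tested Nr4a receptors and other immediate early factors, Nr4a2, Klf2 and Fosl2 rose, beside 0.467% of all genes tested. Nr4a2, an orphan nuclear receptor whose gene is switched on by cAMP in many cells, stood at 6.35, 6.36 and 7.03 CPM in vehicle and at 26, 33 and 28.9 CPM in dDAVP. The lowest dDAVP library was well over the highest vehicle library, and the log2 rise was 2.15 ± 0.149 (adjusted p = 1.33e-09). Nr4a1, its relative, stood at 17.4, 23.9 and 29.7 CPM in vehicle and at 34.3, 42.3 and 34.6 CPM in dDAVP and did not pass (log2 0.65, adjusted p = 0.0598). Nr4a3 stayed between 0.972 and 1.58 CPM in all 6 libraries (log2 0.15). Klf2, a zinc finger factor, rose by 1.38 ± 0.233 (adjusted p = 0.00179), from 3.59, 5.07 and 6.62 CPM to 13.1, 14.7 and 11.8 CPM. Fosl2, a partner of Jun proteins, had the smallest rise of the 3 (0.58, adjusted p = 0.0465), and its call survived the loss of dDAVP replicate 1 but of no other library (adjusted p up to 0.575). On TPM with 1 added, limma gave Fosl2 a log2 fold change of 0.10 (adjusted p = 0.532). Fos stood at 17.6, 29.6 and 29.3 CPM in vehicle and at 23.4, 25.9 and 28.2 CPM in dDAVP, with the groups overlapping (log2 0.02, adjusted p = 0.941). The promoter windows of Nr4a1, Nr4a2 and Nr4a3 each hold 4 cores and that of Fos holds 2, so cores stood before genes that passed and before genes that did not.

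Other transcription regulators were called singly. Bhlhe40, a repressor with E-box binding that belongs to the clock list, rose by 0.85 ± 0.197 (adjusted p = 0.0482) as the 1 of 19 clock genes that passed. Its call ended without any 1 of 5 libraries (adjusted p up to 0.589), the exception being dDAVP replicate 1, and when the receptor gene share described below was a covariate (adjusted p = 0.0773). Heyl, a repressor in the Notch pathway, was called although its means lay under 5 CPM, going from 1.53, 1.2 and 1.3 CPM to 4.57, 5.44 and 4.47 CPM (log2 1.84 ± 0.251, adjusted p = 8.86e-05). Eya2, a transcriptional coactivator, rose from 11.3, 16.9 and 16.4 CPM to 27.8, 35.2 and 34 CPM (log2 1.12 ± 0.145). Cebpb, a leucine zipper factor, varied within both groups, with 2.19, 5.58 and 21.3 CPM in vehicle and 48.2, 45.1 and 16.4 CPM in dDAVP. Replicate 3 of each group went against the other 2, and the log2 fold change of 1.92 ± 0.606 did not pass (adjusted p = 0.289). None of 5 tested C/EBP factors and none of 16 listed epithelial ETS, KLF and GRHL factors passed, beside 0.484% of all genes tested. Klf2, which passed, was counted with the immediate early factors and is not on the latter list. Elf3, which is on that list, stood at 152, 191 and 196 CPM in vehicle and at 216, 283 and 282 CPM in dDAVP (log2 0.53, adjusted p = 0.0614), with the groups apart.

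Genes of other hormone receptors and their partners included the second largest named rise and 1 of the 4 falls. Ramp3, which pairs with calcitonin-family receptors and sets their ligand, stood at 0.371, 0.507 and 0.555 CPM in vehicle and at 6.81, 8 and 7.45 CPM in dDAVP. It was barely detected without dDAVP and clearly present in each dDAVP library (log2 3.95 ± 0.312, adjusted p = 1.99e-08). Ramp1 and Ramp2, the other members of its family, had log2 fold changes of 0.23 and 0.20 and did not pass; like Ptger4 below, they are given as family members outside the naming rule, their values known. Ptger1, a prostaglandin E2 receptor (chromosome 8, 83666678 to 83672753), stood at 19.6, 22.3 and 16.7 CPM in vehicle and at 6.28, 5.78 and 8.07 CPM in dDAVP. The groups were far apart, and it fell by 1.55 on the log2 scale (SE 0.251, adjusted p = 0.00105). Ptger1 is among the 23 genes that overlap another gene, so its reads may not all be its own. The prostaglandin E2 receptor Ptger4 and the synthase gene Ptgs2 did not pass, with log2 fold changes of 0.02 and 0.60 (adjusted p = 0.0983 for Ptgs2). Adora1, the A1 adenosine receptor, which couples to Gi, rose from 60.9, 77.2 and 78.5 CPM to 103, 129 and 130 CPM (log2 0.74 ± 0.113, adjusted p = 0.000444). Dusp10, a phosphatase of stress-activated kinases, was the 1 of 24 feedback genes tested that rose (log2 0.73, adjusted p = 0.0157). Its call survived the loss of vehicle replicate 2 but of no other library (adjusted p up to 0.219). The call of Dusp10 was also lost by library totals (adjusted p = 0.0891) and on TPM with 1 added (limma log2 0.10, adjusted p = 0.568). With the receptor gene share as a covariate 2 feedback genes rose.

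Several of the largest rises were enzymes. B3gnt7, a glycosyltransferase that extends keratan sulfate-like glycans (chromosome 1, 86302832 to 86307305), stood at 3.63, 5.95 and 6.01 CPM in vehicle and at 34.3, 45.3 and 44.8 CPM in dDAVP. All dDAVP libraries were well above all vehicle libraries (log2 3.00 ± 0.164, adjusted p = 9.88e-12). It was the 1 of 20 such enzymes tested that passed. Arg2, the mitochondrial arginase that splits arginine into ornithine and urea (chromosome 12, 79130777 to 79156301), stood at 3.42, 4.06 and 6.52 CPM in vehicle and at 19.2, 19.9 and 22 CPM in dDAVP (log2 2.13 ± 0.216, adjusted p = 9.72e-07). It overlaps Vti1b on the other strand (log2 0.28). Sat1, which acetylates polyamines for their export and breakdown, rose by 0.69 ± 0.145 (adjusted p = 0.0206), while Odc1, the entry enzyme of polyamine synthesis, had a log2 fold change of 0.37 and did not pass. Arg2 and Sat1 were the 2 that passed of 17 genes of arginine and polyamine metabolism, beside 0.484% of all genes tested. The call of Sat1 ended without vehicle replicate 1 or 2 and without dDAVP replicate 2 or 3 (adjusted p up to 0.44).

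In sphingolipid metabolism 2 of 22 tested genes rose, beside 0.467% of all genes tested. Cerk, the kinase that makes ceramide 1-phosphate (chromosome 15, 86139128 to 86186141), stood at 3.38, 3.32 and 2.96 CPM in vehicle and at 9.83, 11 and 9.56 CPM in dDAVP (log2 1.65 ± 0.183, adjusted p = 4.16e-06). Smpd2, a neutral sphingomyelinase, stood at 29.8, 36.9 and 38.7 CPM in vehicle and at 56.6, 70.1 and 71.8 CPM in dDAVP (log2 0.91 ± 0.131, adjusted p = 0.000194). The groups of both genes did not overlap. Other lipid enzymes that rose were Soat1, which esterifies cholesterol for storage (log2 1.43), Cpt1a, which admits fatty acids to mitochondria (1.06), and Gdpd1, a phosphodiesterase of lysophospholipids (1.22). Cpt1a stood at 96.9, 123 and 126 CPM in vehicle and at 221, 262 and 238 CPM in dDAVP. None of 21 genes of cholesterol and fatty acid synthesis passed, beside 0.484% of all genes tested, and 1 rose with the receptor gene share as a covariate.

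Of 20 xenobiotic and reductive enzymes tested 3 rose, beside 0.467% of all genes tested. Cyp1b1, a cytochrome P450, rose from 4.25, 3.27 and 3.75 CPM to 8.39, 13.1 and 13.7 CPM (log2 1.64 ± 0.196), and Cbr3, a carbonyl reductase, from 2.64, 3.64 and 2.91 CPM to 8.91, 10.7 and 8.79 CPM (1.62 ± 0.193). Srxn1, which repairs oxidised peroxiredoxins, rose by 0.54, and its call ended without vehicle replicate 1 or 2 and without dDAVP replicate 2 or 3 (adjusted p up to 0.407). It also ended with DESeq2 (adjusted p = 0.0674) and on TPM with 1 added (limma log2 0.10, adjusted p = 0.506). Crabp2, which carries retinoic acid to the nucleus, rose from 20.3, 26.1 and 28.5 CPM to 66.6, 72.1 and 73.8 CPM (adjusted p = 1.23e-07). Ndrg1, known from the response to low oxygen, was the 1 of 23 genes of glycolysis and hypoxia that rose (log2 0.84, adjusted p = 0.00606). Without vehicle replicate 1 or dDAVP replicate 2 or 3 its adjusted p reached up to 0.0984. Nfkbiz, an inducible regulator of NF-kB targets, was the 1 of 28 interferon, antigen presentation and NF-kB genes that rose (log2 0.84, adjusted p = 0.000195).

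The remaining large rises included a few genes of the actin cortex and the cell surface, beside genes of other kinds. Cotl1, an actin filament-binding protein, rose from 4.17, 6.13 and 4.58 CPM to 16.6, 19.8 and 19.4 CPM (log2 1.91 ± 0.251, adjusted p = 5.36e-05). Baiap2l2, which bends membranes at actin-rich protrusions, rose from 4.21, 3.41 and 4.81 CPM to 10.9, 13 and 13.9 CPM (1.60 ± 0.18, adjusted p = 5.1e-06). They were the 2 that passed of 36 genes on the actin cytoskeleton list, beside 0.484% of all genes tested. Outside that list Add3, the gamma adducin that caps actin filaments and binds them to spectrin (chromosome 19, 53140443 to 53247399), stood at 51.7, 60.6 and 62.6 CPM in vehicle and at 138, 160 and 160 CPM in dDAVP. It rose by 1.39 ± 0.117 (adjusted p = 4.94e-08). Arhgef3, a guanine nucleotide exchange factor, rose by 1.20, Arl4d, a small GTPase of the Arf family, by 1.10, and Chp1, a partner of sodium-proton exchangers, by 1.19. At the cell surface the mucin Muc4 rose by 1.35, the GPI-anchored Lypd3 by 1.28 and Prom1, a protein of membrane protrusions, by 0.94. Muc4 shares its locus with Muc20 on the other strand, which also passed (log2 0.70). The kinase Cdk18 rose by 1.11, Rassf10, a Ras-association domain protein, by 1.30, and Klhl36, an adaptor of the kelch family, by 1.23. On TPM with 1 added, limma did not call Arhgef3, Klhl36 or Rassf10 (adjusted p = 0.128, 0.0618 and 0.0945), nor Heyl or Nfkbiz (0.139 and 0.0833). With the 3 h libraries alone Arl4d and Rassf10 lost their calls (0.0563 and 0.104). None of 28 vesicle traffic genes and none of 22 junction, polarity and keratin genes passed, beside 0.484% of all genes tested. With the receptor gene share as a covariate 1 of the latter 22 rose.

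The remaining falls were Rasl11a and Veph1. Rasl11a, a Ras-like GTPase (chromosome 5, 146845071 to 146847726), stood at 10, 11.9 and 15.2 CPM in vehicle and at 2.81, 3.61 and 4.42 CPM in dDAVP. Its groups were far apart, and the log2 fold change of -1.78 ± 0.203 (adjusted p = 6.12e-06) made it the largest fall. Veph1, a pleckstrin homology domain protein, stood at 55.3, 70.3 and 70.7 CPM in vehicle and at 41, 44.9 and 45.5 CPM in dDAVP (-0.58 ± 0.109, adjusted p = 0.00649). The call of Veph1 ended without vehicle replicate 2 and without dDAVP replicate 1 or 2 (adjusted p up to 0.132). It also ended with RLE size factors, without a filter on low counts and with DESeq2 (adjusted p = 0.454, 0.301 and 0.293).

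No member of the housekeeping groups passed, beside 0.484% of all genes tested. All 76 cytosolic ribosomal protein genes had a log2 fold change above 0, with a median of 0.35, and none passed. None of 13 mitochondrially encoded genes (median 0.21) and none of 25 tested cell cycle and replication genes (median 0.21 over the 24 of at least 5 CPM) passed. With the receptor gene share in the model these medians were 0.12, 0.02 and 0.03, and in a refit of genes of at least 5 CPM, described below, they were 0.18, 0.03 and 0.03.

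**Figure D3:**
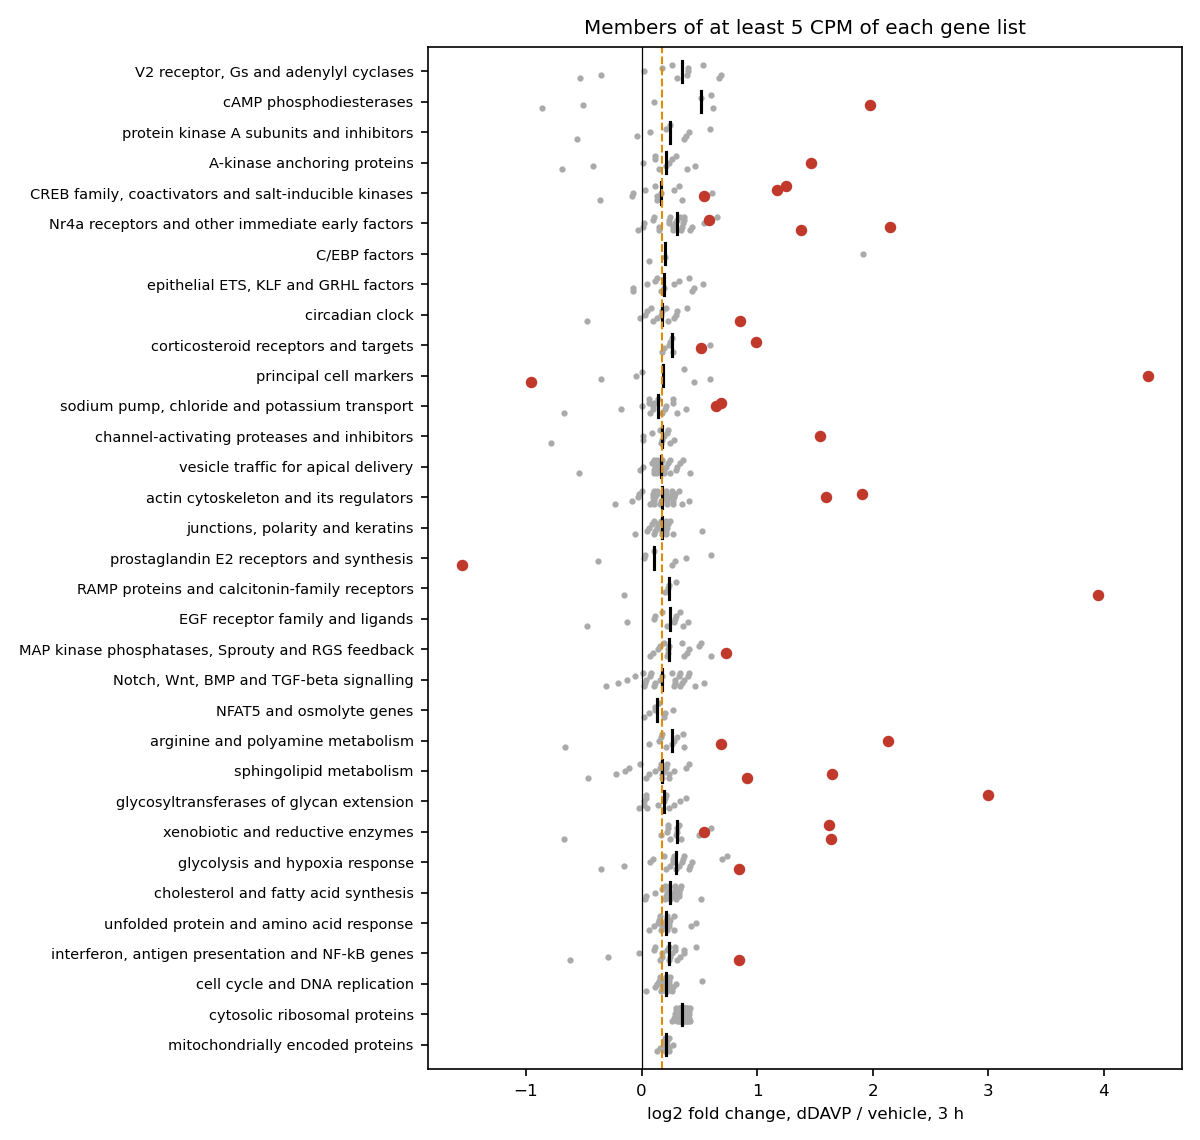
Log2 fold change of dDAVP over vehicle at 3 h for the members of at least 5 CPM of each gene list, 1 point per gene, with a bar at the list median. Red points passed the test; the dashed line at 0.18 is the median of all genes of at least 5 CPM, and most list medians lie close to it; the cAMP phosphodiesterases are farthest above it at 0.51, followed by the ribosomal protein genes and the V2 receptor list, both at 0.35.

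Small shifts went with the scaling factors of the libraries and with their share of receptor genes. The median log2 fold change of genes of at least 5 CPM was 0.18, with 78.4% of them above 0, while genes under 5 CPM had a median of -0.43. Olfactory (Olfr) and vomeronasal (Vmn) receptor genes, which have their known role in the nose, held 0.875%, 0.579% and 0.379% of the counts in vehicle replicates 1, 2 and 3 and 0.494%, 0.266% and 0.328% in dDAVP replicates 1, 2 and 3. Vehicle replicate 1 was highest and dDAVP replicate 2 lowest, and the groups overlapped. The mean share was 0.611% ± 0.25 (SD, n = 3) in vehicle and 0.363% ± 0.118 in dDAVP, a difference of -0.248 percentage points (exact permutation test, two-sided, p = 0.2, where 0.1 is the smallest p that 3 against 3 libraries can give). Set against the mean of the vehicle libraries, the median gene of at least 5 CPM lay at -0.19, 0.01 and 0.18 in the vehicle libraries and at 0.02, 0.30 and 0.23 in the dDAVP libraries on the log2 scale. Over the 6 libraries, the order of these medians is the reverse of the order of the receptor share. The scaling factors (TMM) were 1.326, 1.153 and 1.025 in vehicle replicates 1, 2 and 3. They were 1.125, 0.9349 and 0.971 in dDAVP replicates 1, 2 and 3, which is the same order as the receptor share. A higher factor lowers every CPM of its library, and these medians were taken on scaled CPM. By library totals alone the median log2 fold change was slightly below 0, as given with the processing below. The part of the receptor gene share in the shift was not tested.

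**Figure D4:**
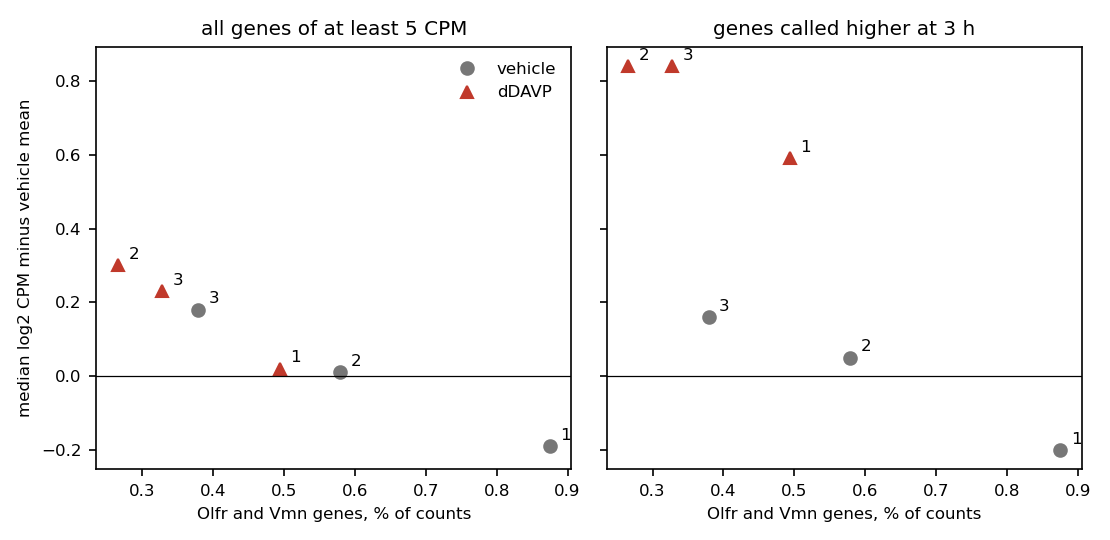
Median log2 CPM after scaling, relative to the mean of the vehicle libraries, against the percentage of counts in Olfr and Vmn genes. Each library is 1 point with its replicate number. For all genes of at least 5 CPM (left) the 2 treatments lie along 1 falling line, from 0.30 to -0.19, while for the genes that rose (right), chosen for that separation, the dDAVP libraries lie at 0.59 to 0.84 and the vehicle libraries at -0.20 to 0.16.

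The 136 rises were chosen by this same comparison, so the separation of their medians is set by the choice and is given as a description. The median of the 136 rises lay at -0.20, 0.05 and 0.16 in the vehicle libraries and at 0.59, 0.84 and 0.84 in the dDAVP libraries. That of the 33 rises under 1.5-fold lay at -0.19, 0.02 and 0.15 against 0.38, 0.63 and 0.59. When the log2 receptor share was added to the model, 135 of the 136 rises and all 4 falls still passed, Bhlhe40 being the exception. The median rise was 0.62 in place of 0.75, and that of the 33 smallest was 0.40 in place of 0.55. The median over all genes of at least 5 CPM was then 0.04.

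How many genes were called lower depended on the fit. With the scaling factors left out and nothing else changed, 48 genes of at least 5 CPM were called lower in place of 4. A refit restricted to genes of at least 5 CPM, which changes the filter, the spread and the adjustment along with the scaling and whose median log2 fold change was 0 by its own scaling, called 299 genes, 224 higher and 75 lower, so 74.9% were higher in place of 97.1%. When the model of all genes included the receptor share, 202 genes of at least 5 CPM passed, 174 higher (1.39%) and 28 lower (0.224%). Of the 140 genes first called, 133 passed in all 3 fits, 129 higher and 4 lower. A further 21 genes were called lower in both the refit and the model with receptor share but not in the first fit, and 31 genes higher.

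Avpr2, which encodes the receptor for dDAVP itself, was among those 21. It stood at 27.8, 34.1 and 36.1 CPM in vehicle and at 23.7, 25 and 28.3 CPM in dDAVP, with overlapping groups and no call (log2 -0.35, adjusted p = 0.365). By library totals without scaling factors it stood at 36.7, 39.2 and 37 CPM in vehicle and at 26.6, 23.3 and 27.4 in dDAVP, with the groups apart. Its log2 fold change was -0.52 both with receptor share (adjusted p = 0.00057) and in the refit (adjusted p = 0.000188). Other genes with such a pattern, chosen after their values were seen, were Txnip, an inhibitor of thioredoxin and glucose uptake, Sphk1, a sphingosine kinase, the annexin Anxa9, the cornified envelope protein Scel, the zinc finger factor Plagl1 and the vitamin B6 kinase Pdxk. Their log2 fold changes in the refit lay at -0.50, -0.40, -0.50, -0.52, -0.47 and -0.52, in that order. For Txnip the CPM by library total were 307, 328 and 318 in vehicle and 229, 212 and 221 in dDAVP, which do not overlap. In the first fit the same 6 genes had adjusted p of 0.28 to 0.365. Elf3 passed in the higher direction in both other fits (log2 0.36 and 0.35), and Nr4a1 in the refit alone (0.49, adjusted p = 0.0334).

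The scaling also changed the spread within groups, in a direction that differed between genes. By library total alone, Aqp2 stood at 6.65, 6.57 and 6.63 CPM in vehicle and 123, 118 and 118 in dDAVP, a narrower range than the scaled values in both groups. For Akap12 the unscaled values were 104, 115 and 110 against 270, 275 and 249, and for Add3 68.3, 69.7 and 64.1 against 155, 150 and 155. The direction and the separation of the groups were the same on both scales for these 3 genes. Cerk and Pde4b, which are of low level in vehicle, had a wider vehicle range by library total than after scaling. Whether the direction went with the level of a gene was not tested. For Cerk it was 3.03 to 4.47 CPM against 2.96 to 3.38 CPM, and for Pde4b 3.36 to 4.85 CPM against 3.28 to 3.92 CPM.

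The early rises were compared with the effects at later times, each against the vehicle libraries of that time. The median log2 fold change of the 136 rises was 0.75 at 3 h, 0.76 at 6 h, 0.31 at 12 h and 0.26 at 24 h. Over all genes of at least 5 CPM it was 0.18, 0.32, 0.07 and 0.00. At 6 h, 131 of the 136 were called higher, but so were 48.7% of all genes of at least 5 CPM. At 12 h 17 were called higher and at 24 h 18, beside 0.168% and 0.184% of all genes. With the receptor gene share as a covariate the counts at 6, 12 and 24 h were 57, 43 and 39, beside 0.617%, 0.457% and 0.529%. The effect was smaller than at 3 h for 68 of the rises at 6 h, for 130 at 12 h and for 130 at 24 h. Since the 136 were chosen by their size at 3 h, smaller values at other times are partly built in.

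**Figure D5:**
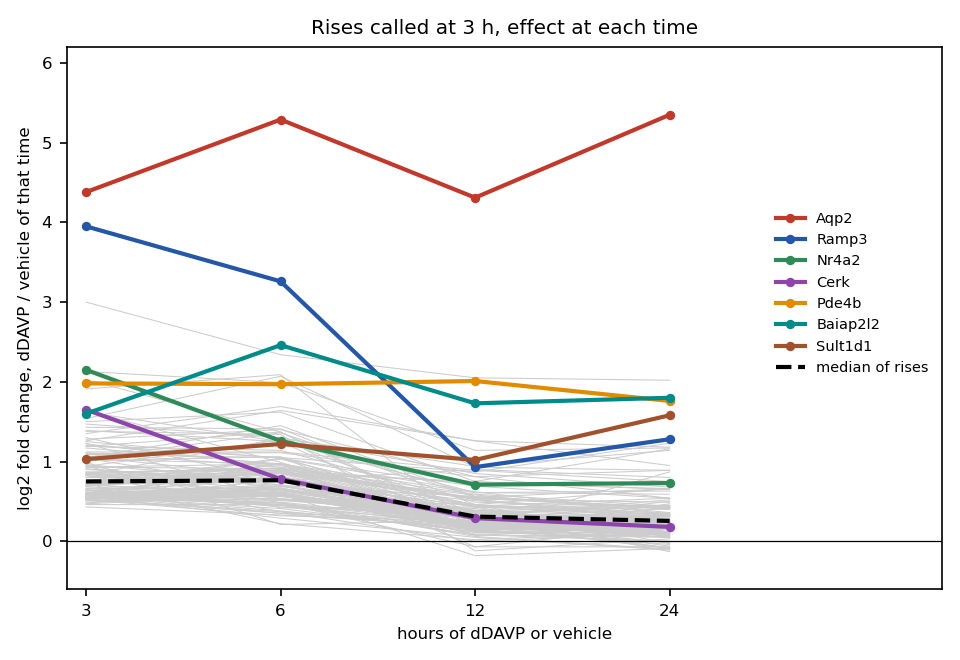
Log2 fold change of dDAVP over the vehicle libraries of the same time at 3, 6, 12 and 24 h for the genes that rose at 3 h, 1 grey line per gene, with 7 genes in colour, the times evenly spaced and the median of the rises dashed (0.75, 0.76, 0.31 and 0.26). Aqp2, Pde4b and Baiap2l2 stay high to 24 h, while Ramp3, Nr4a2 and Cerk come down by 12 h; Gm42429, at 0 in every vehicle library of 3 h, is not drawn.

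In the test of the effect at 3 h minus the mean effect at 6, 12 and 24 h, 3 genes passed, 0.0101% of all genes tested and 0.024% of those of at least 5 CPM, all with the larger effect at 3 h. They were Nr4a2, Ramp3 and Cerk. Nr4a2 had log2 fold changes of 2.15, 1.26, 0.71 and 0.73 at 3, 6, 12 and 24 h (3 h minus later 1.25, adjusted p = 0.0028). Ramp3 had 3.95, 3.26, 0.93 and 1.28 (2.12, adjusted p = 0.0391), and Cerk had 1.65, 0.78, 0.29 and 0.18 (1.23, adjusted p = 0.0391). None of the 3 passed with RLE size factors, and 1 of them passed without each single library in turn. With the receptor gene share as a covariate, 40 genes of at least 5 CPM passed (0.32%). Among them were Usp2 (0.99, 0.21, 0.26 and 0.12 without the share) and Smpd2 (0.91, 0.71, 0.14 and -0.04). Over all genes 42 passed with the share, 32 with a difference above 0 and 10 with one below. Aqp2 had 4.38, 5.29, 4.31 and 5.35 and did not pass (3 h minus later -0.61, adjusted p = 1). Pde4b had 1.98, 1.97, 2.01 and 1.76, and Baiap2l2 had 1.60, 2.46, 1.73 and 1.80. Rasl11a had -1.78, -1.02, -0.92 and -1.15, and Ptger1 -1.55, -1.58, -0.57 and -0.06, and neither passed. Fos, at 0.02 at 3 h, had a log2 fold change of 0.92 at 6 h (adjusted p = 0.00212), a time at which 48.7% of genes of at least 5 CPM were called higher.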

How the data were processed

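RNA of 24 libraries was profiled, and the 6 of 3 h are described. Per the labels' protocols, RNA went from Trizol through Direct-zol columns into SMART-Seq HT cDNA and Nextera libraries. Per the submitters' processing notes, Salmon 0.14.10 and GRCm38.p6 were used; how transcripts were summed to genes and whether strand was used were not stated in the labels or file headers. The authors deposited estimated counts per gene, not normalized, and a TPM table scaled to a fixed total per library. Totals at 3 h were 18.35, 18.86 and 21.12 M estimated counts in vehicle and 20.3, 24.63 and 20.07 M in dDAVP.

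Estimated counts were rounded and analysed with edgeR 4.0.16 in R 4.3.3: TMM scaling, filterByExpr (29743 of 54432 genes), 1 mean per group over all 24 libraries, the quasi-likelihood F test and Benjamini-Hochberg adjustment, threshold 0.05. Every adjusted p in the report comes from this unless a refit is named. The receptor share used 1429 genes named Olfr or Vmn (1108 and 321), without pseudogenes. The common dispersion was 0.0366, and 0.00635 with the log2 share as a covariate. Replicates differed by more than sampling noise, so each counted once.

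Names and positions came from GENCODE M21. Genes were named by rule: the 30 largest rises and all falls of at least 5 CPM with a gene symbol and separated groups, the 10 of at least 100 CPM with the smallest p, 20 fixed genes, and called or leading members of 39 lists; others are said to be chosen after their values were seen. Members, lists and rules were chosen with earlier results of these data known. Alternatives were other scaling (RLE, none), filters, the covariate, a replicate block, DESeq2 1.42.0, limma 3.58.1 on log2 TPM with 1 or 0.1 added, the 3 h libraries alone, and leaving out each library. Scaling by library totals alone was added after seeing the data. The fit was also run on simulated counts with 1 spread for all genes and no difference in receptor share between libraries. That run cannot speak to the dependence of the calls on scaling or receptor share. Some genes that the naming rule covers are not reported here.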

Additional observations from a re-analysis of the deposited data

Results flagged for a closer look

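Results are listed here where the effect at 3 h differed from the mean effect at the 3 later times by a test of that difference (edgeR's quasi-likelihood test, Benjamini-Hochberg adjustment over all genes). On the log2 scale the difference was 1.25 for Nr4a2 (adjusted p = 0.0028), 2.12 for Ramp3 (adjusted p = 0.0391) and 1.23 for Cerk (adjusted p = 0.0391). With the receptor gene share in the model the adjusted p were 4.56e-05, 0.000515 and 0.000645. None of the 3 passed with RLE size factors, 2 passed without a filter on low counts, 1 passed with limma on TPM, and 1 passed without each single library in turn. The groups of 3 libraries are too small for a check of single libraries that stand apart.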

How the results depend on the processing

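Counts of calls at 3 h over all genes, and in brackets over genes of at least 5 CPM, were 144 (140) as reported. They were 70 (65) with RLE size factors, 68 (64) with only the 6 libraries of 3 h, 93 (84) with limma on log2 (TPM + 0.1), 90 (87) at a threshold of 0.01, 299 with a 5 CPM filter, 217 with receptor share and 282 with both. Leaving out each library gave 63 to 206 (60 to 194). In limma on log2 (TPM + 1), 58 were higher and 77 lower. The median log2 fold change of genes of at least 5 CPM was 0.18, 0 with the 5 CPM filter with or without receptor share, -0.03 by library totals alone, -0.13 and -0.15 with limma on TPM plus 1 or 0.1, and 0.09 to 0.27 without single libraries. The 3 genes called for the effect at 3 h minus later became 0 with RLE and 1 to 2 without single libraries. Other settings called genes in both directions, given in brackets as differences above and below 0. The counts were 37 (24 and 13) with the 5 CPM filter, 42 (32 and 10) with receptor share and 61 (43 and 18) with both. They were 24 (18 and 6) by library totals alone, 6 (4 and 2) and 7 (4 and 3) with limma, and 6 (4 and 2) with DESeq2. The receptor gene share, dDAVP minus vehicle at 3 h, kept its sign in the alternatives run, -0.116 to -0.364 percentage points without single libraries.

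Whether the replicate numbers pair the samples is not stated, and deviations among 3 libraries a group cannot settle it. Those of same-numbered vehicle and dDAVP libraries had correlations of 0.643, -0.116 and 0.252, and not every library correlated best with its own number. With the replicate block 170 genes were called (165 of at least 5 CPM), the 144 among them, and 4 in the test against later times. Of 52 called genes named by rule, 29 were called at 0.05 in every fit run, 12 lost the call without some library, and 11 lost it only in other fits. Values near 0 that were not called as reported changed sign, and the cause was not tested. These were Fos (-0.14, -0.15, -0.19, -0.17, -0.04, -0.26 and -0.29 with the 5 CPM filter, receptor share, both, library totals, 3 h libraries alone and limma with 1 or 0.1; -0.19 to 0.15 without single libraries, -0.08 without dDAVP replicate 3), Sgk1 (-0.01, -0.04, -0.41 and -0.48 with the 5 CPM filter, library totals and limma), Nr4a3 (-0.07 by library totals and -0.05 to 0.33 without single libraries), Aqp4 (0.06 with RLE and DESeq2, 0.03 without a filter, up to 0.13 without vehicle replicate 1 and 0.03 without dDAVP replicate 2) and Scnn1a (0.03 with RLE and DESeq2, 0.02 without a filter, -0.22 to 0.10 without single libraries, 0.09 without vehicle replicate 3). Depth of 18.35 to 24.63 M counts and 3 libraries a group limit what small changes can be called.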
